A study of Mus musculus with 4 samples.

Results

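Genes of the mitochondrial respiratory chain were measured by single-cell RNA-seq in 4 mouse heart grafts, 2 allogeneic and 2 syngeneic. Members were chosen by symbol alone, as every row of the gene list that starts with mt-, Nduf, Sdh, Uqcr or Cox4 to Cox8, without Cox6a2. This gave 92 of 30905 rows. Of these, 13 are the protein-coding genes of the mitochondrial genome and 79 are nuclear genes, of which 67 encode subunits and 12 encode assembly factors. All 92 were matched to GENCODE M21 on GRCm38, and the nuclear members lie on 19 chromosomes.

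Donor hearts came from Balb/C mice in the allogeneic group and from C57BL/6J mice in the syngeneic group. All were placed in the abdomen of C57BL/6J recipients, with male animals of 8 to 10 weeks used throughout, and grafts were taken on day 5, digested to single cells and profiled on the 10x Chromium platform. Each graft therefore holds donor tissue cells and recipient cells that entered from the blood (the labels name no drug or genetic change in either group). Cells from all 4 grafts stand in 1 merged table of UMIs (unique molecular identifiers, each standing for 1 captured RNA molecule), and their barcodes end in a suffix from 1 to 4. Neither the labels nor the files tie a suffix to a graft. The suffixes are called libraries 1 to 4 here, all cells count as 1 pooled sample without replicates, and no allogeneic value is set against a syngeneic value. Differences between cell types or libraries are given as sizes with exact 95% intervals (Clopper-Pearson for shares, Poisson for levels), which cover counting error only, and no test between them was run.

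The respiratory chain passes electrons from NADH and succinate through complexes I to IV of the inner mitochondrial membrane to oxygen, and pumps protons that ATP synthase uses to make ATP. Complexes I, III and IV are built jointly from proteins of the mitochondrial and nuclear genomes, whereas complex II is wholly nuclear. Heart muscle cells are among the cells richest in mitochondria, since contraction draws on a constant supply of ATP. A high share of mitochondrial UMIs is also a common reason to discard a cell in single-cell work, and the study kept cells under 20% of mitochondrial UMIs and then dropped the mitochondrial genes. Here no such limit was set, and cells with over 200 detected genes were kept.

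After removal of 2683 presumed doublets, 50975 cells with 462967003 UMIs remained. Library totals over all deposited cells ranged from 96020294 to 166079145 UMIs. Of 53516 distinct barcode sequences, 308 occurred in more than 1 library, between 40 and 60 per pair of libraries. Cells were clustered without the member genes, and 23 of 27 clusters could be named from marker genes as 10 classes, each called by its cell type with "-like". The other 4 clusters, with 7148 cells (14%), were left unnamed. In 12 clusters over 90% of the cells came from 1 library, so the same class is often held by different clusters in different libraries. The 1894 cardiomyocyte-like cells carried 14391 CPM of Tnnt2 (cardiac troponin T), against 46.2 CPM in all other cells, and 17109 against 47.7 CPM of Myl2 (ventricular myosin light chain). All 9 cardiomyocyte markers were higher in them. CPM here is the UMIs of a gene per 1000000 UMIs of all genes outside the mitochondrial genome. It is a count of molecules by their 3′ end and is not divided by gene length.

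Many nuclear respiratory chain genes share promoters rich in G and C that can carry motifs of NRF1 and of ETS family factors such as GABP, 2 regulators long linked to mitochondrial biogenesis. Promoter windows of 300 bases, from 250 before to 50 after the RefSeq start on GRCm38.p6, were found for 65 of the 79 nuclear members. The NRF1 core (GCGCA, then any base, then GCGC, read on both strands) occurred in 15 of the 65 (23.1%) and in 5.18% of 26994 genes with a window. The ETS motif CCGGAAG occurred in 16 members (24.6%) and in 9.92% of all genes, and TATAAA in 7 members (10.8%) and in 15.7% of all genes. The median GC content was 58.7% in the members' windows and 52.7% in all windows. Windows are shown for 5 members whose levels are described below, 5′ to 3′ on the gene's strand with the motif letters in capitals and all other letters in lower case. They are Cox6a1 (chr5:115348909-115349208, minus strand, NRF1 core and ETS motif), the complex II subunit Sdhd (chr9:50603800-50604099, minus strand, NRF1 core and ETS motif), Ndufa5 (chr6:24527477-24527776, minus strand, NRF1 core), Cox7a1 (chr7:30183921-30184220, plus strand, none of the 3 motifs) and Cox8b (chr7:140900397-140900696, minus strand, TATAAA).
Cox6a1: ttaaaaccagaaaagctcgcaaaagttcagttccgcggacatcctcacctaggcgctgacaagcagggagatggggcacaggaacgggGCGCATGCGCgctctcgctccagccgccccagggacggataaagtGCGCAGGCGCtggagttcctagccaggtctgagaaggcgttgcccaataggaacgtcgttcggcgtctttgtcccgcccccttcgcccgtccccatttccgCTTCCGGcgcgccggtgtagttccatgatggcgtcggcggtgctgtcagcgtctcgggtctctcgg
Sdhd: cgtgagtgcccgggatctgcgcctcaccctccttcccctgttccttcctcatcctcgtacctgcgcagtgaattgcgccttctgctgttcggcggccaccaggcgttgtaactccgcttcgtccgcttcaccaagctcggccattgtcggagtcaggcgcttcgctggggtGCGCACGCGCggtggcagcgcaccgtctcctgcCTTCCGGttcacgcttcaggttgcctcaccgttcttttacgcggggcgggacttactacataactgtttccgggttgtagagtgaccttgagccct
Ndufa5: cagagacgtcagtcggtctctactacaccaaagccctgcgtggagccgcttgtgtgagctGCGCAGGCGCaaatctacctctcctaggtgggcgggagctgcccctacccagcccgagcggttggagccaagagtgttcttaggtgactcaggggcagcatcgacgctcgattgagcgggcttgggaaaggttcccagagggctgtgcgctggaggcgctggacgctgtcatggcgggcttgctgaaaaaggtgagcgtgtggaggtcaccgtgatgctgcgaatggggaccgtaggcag
Cox7a1: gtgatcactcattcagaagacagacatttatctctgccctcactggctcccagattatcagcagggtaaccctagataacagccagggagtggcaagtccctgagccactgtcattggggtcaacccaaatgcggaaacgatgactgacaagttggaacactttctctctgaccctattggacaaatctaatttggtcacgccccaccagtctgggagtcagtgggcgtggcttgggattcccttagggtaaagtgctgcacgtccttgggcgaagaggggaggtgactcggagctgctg
Cox8b: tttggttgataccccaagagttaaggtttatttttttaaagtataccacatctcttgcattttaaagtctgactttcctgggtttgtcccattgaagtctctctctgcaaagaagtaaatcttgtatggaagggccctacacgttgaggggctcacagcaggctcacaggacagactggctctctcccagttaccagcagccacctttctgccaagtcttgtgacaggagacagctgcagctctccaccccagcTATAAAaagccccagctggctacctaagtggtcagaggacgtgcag
Ndufa5 has a further RefSeq start, whose window holds the same NRF1 core. The windows of the muscle isoforms Cox7a1 and Cox8b held neither the NRF1 core nor the ETS motif, each of which was also absent in most other members. A match is a run of letters and not a shown binding site.

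Mitochondrial transcripts made up 7.0% of all UMIs and the nuclear members 1.44% of the UMIs outside the mitochondrial genome. Cardiomyocyte-like cells stood highest in both. With UMIs pooled over cells, their mitochondrial share was 26.8% (26.8 to 26.9) and their nuclear share 7.28% (7.25 to 7.31). Their median cell was lower, at 16.1 and 6.78%. Endothelial-like cells, the most numerous class with 17810 cells, had pooled shares of 8.18% and 1.24%, and 8.02 and 1.25% in the median cell. The number of mitochondrial UMIs per nuclear member UMI was 5.04 in cardiomyocyte-like and 7.16 in endothelial-like cells when pooled. By library it was 4.34 against 9.94, 4.44 against 4.49 and 7.86 against 8.19 in libraries 1 to 3. The cardiomyocyte-like value was the lower one in each, but the 2 were nearly equal in library 2, and most of the gap lay in library 1. No interval was computed for these ratios by library. Without library 1 the pooled values were 6.94 and 6.29, but these mix libraries in unlike parts. The first includes library 4 (7.25), which held 2 endothelial-like cells.

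Among the other vessel wall and stromal classes, smooth muscle-like cells came next, with a mitochondrial share of 14.5% and a nuclear share of 2.07%. Pericyte-like cells had 8.15% and 1.40%, and fibroblast-like cells 6.06% and 1.10%. Among the leukocyte classes, macrophage-like cells had a mitochondrial share of 4.87% beside a nuclear share of 1.68%, or 3.05 mitochondrial UMIs per nuclear member UMI, and T/NK-like cells had 6.44%, 1.80% and 3.83. Library 4 set both of these ratios, which were 5.14 and 7.16 without it. B-like cells had 12.1%, 1.24% and 11.2. Granulocyte-like cells had 3.43% and 0.599% when pooled, but 2729 of the 3166 came from library 2. Their mitochondrial share was 6.73, 2.59 and 11.5% in libraries 1 to 3 and their nuclear share 0.857, 0.536 and 1.26%. Without library 2 the shares were 10.1 and 1.14%, so the low pooled values came mainly from library 2. The unnamed cluster 18, a shallow cluster that carried 6 granulocyte markers, is not counted here. Its 800 cells of library 4 had shares of 6.44 and 0.808%. Erythroid-like cells, whose UMIs are mostly globin, had 3.13% and the lowest nuclear share of any class, 0.139%.

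**Figure D1:**
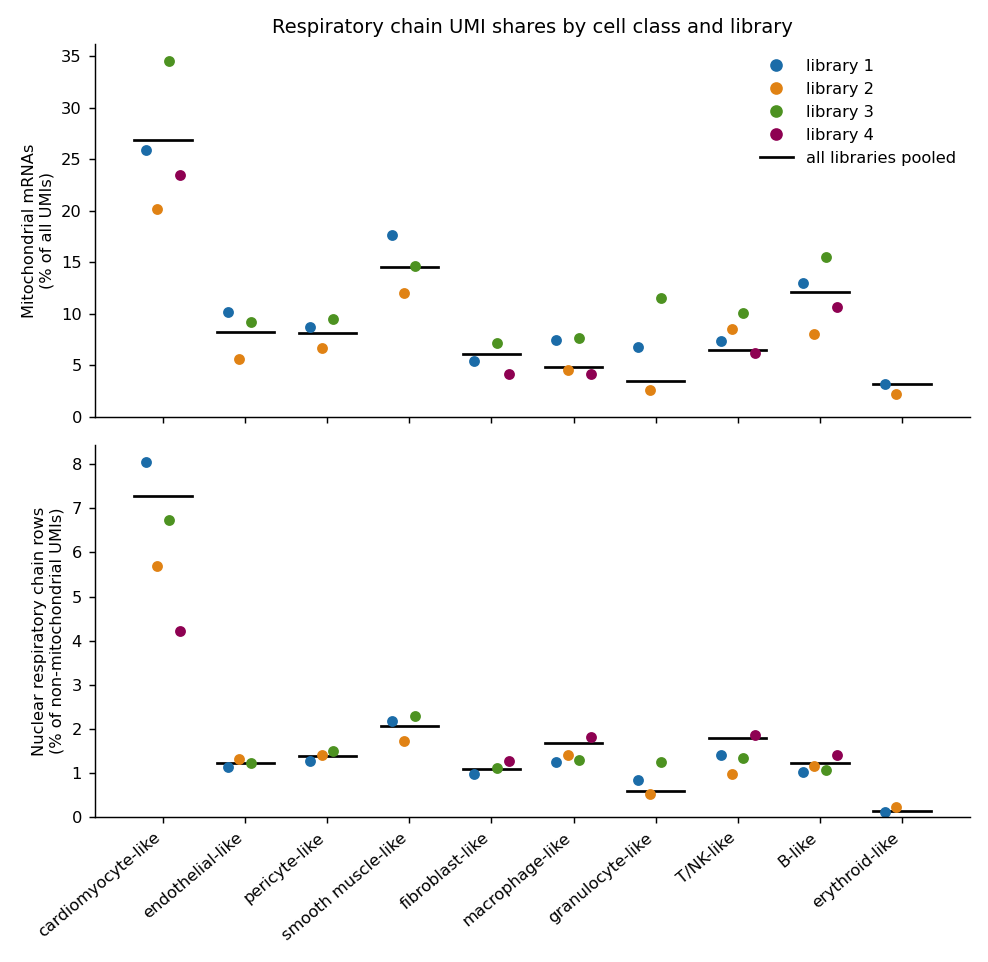
The mitochondrial share of all UMIs (upper panel) and the nuclear members' share of non-mitochondrial UMIs (lower panel), in percent, in each class, with black bars for all libraries pooled and coloured points for each library with at least 50 cells of the class. Cardiomyocyte-like cells lie highest in both shares in each library, at 20.2 to 34.6% and 4.23 to 8.04%.

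With UMIs pooled over the cells of a class, the same order at the top was seen within each library. By the median cell, library 2 was an exception for the mitochondrial share. It was 8.3% in cardiomyocyte-like and 11.1% in smooth muscle-like cells there, and 8 of the 180 cardiomyocyte-like cells were at or over 50%. In the other libraries cardiomyocyte-like cells had the highest median among classes with at least 50 cells. In libraries 1 to 4 the mitochondrial share of cardiomyocyte-like cells was 25.9, 20.2, 34.6 and 23.5%, and their nuclear share 8.04, 5.70, 6.72 and 4.23%. Library 3 was highest for the mitochondrial genome, library 1 for the nuclear genes, and the 2 shares did not follow each other across libraries. These cells were held by cluster 13 in libraries 1 and 3 (99.8 and 99.7% of them), by cluster 27 in library 2 (85.6%) and by cluster 25 in library 4 (92.9%). The summed level of the 9 cardiomyocyte markers differed likewise, at 88905, 46661, 71902 and 27206 CPM in libraries 1 to 4, highest where the nuclear share was highest and lowest where it was lowest. Markers of other classes were also present in these cells. The 8 endothelial markers summed to 1669, 15731, 1977 and 1093 CPM in libraries 1 to 4, with none at 0, and were thus highest in library 2. The 10 macrophage markers summed to 239.98, 189, 853 and 2976 CPM, highest in library 4, with 1 marker at 0 in libraries 2 and 3. The 7 fibroblast markers summed to 1829, 374, 3192 and 650 CPM, highest in library 3, with none at 0. The part of any of these in the nuclear shares was not tested.

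Endothelial-like cells had mitochondrial shares of 10.1, 5.63 and 9.20% in libraries 1 to 3, where clusters 1, 3 and 4 held most of them, and nuclear shares of 1.14, 1.33 and 1.24%. Library 2 was therefore lowest in the mitochondrial share and highest in the nuclear share. Library 4 held 2 such cells and is left out. Its 2929 cells in the unnamed cluster 5, which carried endothelial markers at 8088 CPM in sum, are not counted there, and part of them was named endothelial-like when cells were clustered more finely (630 cells) or with doublets kept (618 cells). The lower mitochondrial share of library 2 recurred in smooth muscle-like cells (17.6, 12 and 14.6% in libraries 1 to 3, all in cluster 14) and in pericyte-like cells (8.68, 6.68 and 9.48%, all in cluster 11). In T/NK-like cells, all in cluster 7, library 2 had 8.50%, between 6.18% in library 4 and 10.1% in library 3.

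Macrophage-like cells had mitochondrial shares of 7.49, 4.49, 7.66 and 4.17% in libraries 1 to 4 and nuclear shares of 1.24, 1.40, 1.31 and 1.83%. Library 4, which held 6088 of the 9382 macrophage-like cells in a cluster almost wholly its own (cluster 2), was lowest in the former and highest in the latter. T/NK-like cells showed the same for the nuclear genes, with 1.87% in library 4 and 1.41, 0.994 and 1.34% in libraries 1 to 3. With smooth muscle-like cells ranked second for the nuclear share in libraries 1 to 3 and T/NK-like cells in library 4, only the top rank was the same in all 4. Ranks cover only classes with at least 50 cells in a library. Smooth muscle-like cells, with 14 cells, were therefore not ranked in library 4. The ratio of mitochondrial to nuclear member UMIs did not keep the same order across libraries. It was highest in erythroid-like cells in libraries 1 and 2 and in B-like cells in libraries 3 and 4. Erythroid-like cells, with 28 and 0 cells, were not ranked in libraries 3 and 4. The ratio was lowest in cardiomyocyte-like cells in library 1 and in macrophage-like cells in the other 3.

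The mitochondrial genome (chromosome M) encodes 7 complex I subunits (mt-Nd1 to mt-Nd6 and mt-Nd4l), cytochrome b of complex III (mt-Cytb), 3 complex IV subunits (mt-Co1 to mt-Co3) and 2 ATP synthase subunits (mt-Atp6 and mt-Atp8). mt-Co3 (19.9% of mitochondrial UMIs) and mt-Atp6 (19.5%) gave the most molecules, followed by mt-Co2 (14.6%), mt-Co1 (12.5%) and mt-Cytb (10.5%). The complex I transcripts mt-Nd4, mt-Nd2 and mt-Nd1 gave 7.23, 6.29 and 6.20%, and mt-Nd3 2.05%. mt-Nd5, mt-Nd4l, mt-Atp8 and mt-Nd6 were each under 1%, at 0.75, 0.30, 0.11 and 0.04%. mt-Nd6 is the only one of the 13 annotated on the minus strand. mt-Atp8 (7766 to 7969) overlaps mt-Atp6 (7927 to 8607), and mt-Nd4l (9877 to 10173) overlaps mt-Nd4 (10167 to 11544). Each pair is known to lie on a shared messenger RNA, and the assay reads 3′ ends, so UMIs of mt-Atp8 and mt-Nd4l cannot be read as the amount of those reading frames.

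This composition moved little between classes compared with the total share. In cardiomyocyte-like cells mt-Co3 was 20.1%, mt-Atp6 17.3%, mt-Co2 14%, mt-Cytb 11.4%, mt-Co1 11.3%, mt-Nd4 8.45% and mt-Nd2 7.61% of mitochondrial UMIs. Macrophage-like cells had more mt-Co1 (14.8%) and mt-Co2 (16.1%) and less mt-Nd2 (5.31%), and T/NK-like cells likewise had 13.7% mt-Co1 and 5.88% mt-Nd4. Libraries differed on a similar scale within a class. mt-Co1 was 12.3, 9.40 and 11.9% of mitochondrial UMIs in endothelial-like cells of libraries 1 to 3, and 12.1, 9.01, 10.1 and 10.2% in cardiomyocyte-like cells of libraries 1 to 4. It reached 16.8% in T/NK-like cells of library 2, so that library 2 held values at both ends. The plot of transcript composition shows the nearly parallel profiles.

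**Figure D2:**
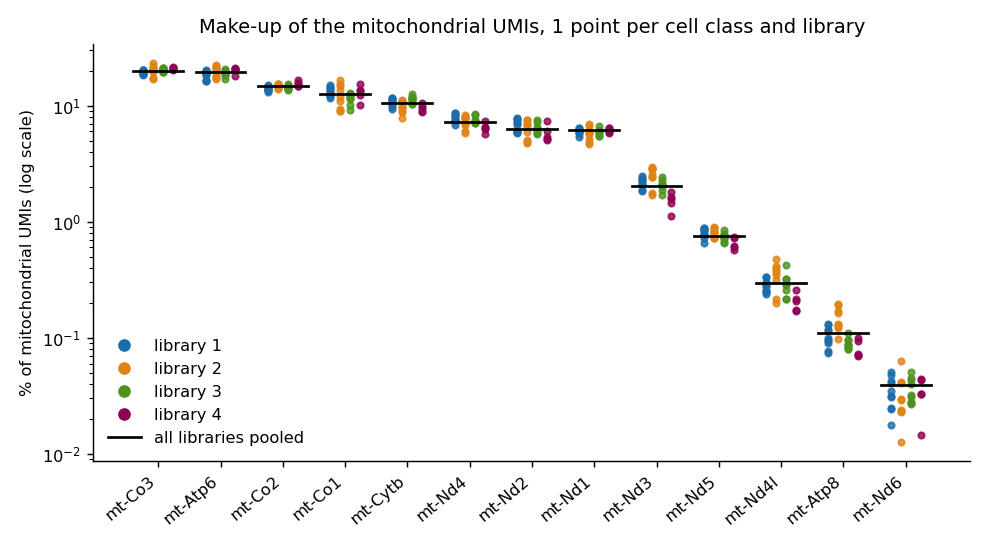
Share of mitochondrial UMIs, in percent on a log scale, of each of the 13 mitochondrial genes, with a coloured point for each class in each library and black bars for all cells pooled. mt-Co3 and mt-Atp6 lead in the pooled cells at 19.9 and 19.5%, mt-Nd6 is last at 0.04%, and the points spread most for the rarest transcripts.

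The 79 nuclear members were unevenly abundant. The 10 with the most UMIs held 36.7% of all nuclear member UMIs, and 9 of these 10 encode accessory subunits of complex IV, namely Cox8a (344161 UMIs), Cox4i1 (337442), Cox6c, Cox7c, Cox6b1, Cox5b, Cox7a2, Cox5a and Ndufa4. The other was the hinge protein Uqcrh of complex III (213163 UMIs). Cox7b2 (7 UMIs) and Cox8c (0 UMIs), isoforms known from testis, fell under the minimum of 20 UMIs for a fold, and 77 members were compared between classes.

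The comparison of cardiomyocyte-like with endothelial-like cells asks how far the chain as a whole differed between these 2 classes. Of the 77 nuclear members, 70 were at least 2-fold higher in cardiomyocyte-like cells and 1 was at least 2-fold lower, where 24.8% of the 15186 genes compared were higher and 33.7% lower. The members' median fold was 5.35, against 0.805 over all genes. Within libraries 1, 2 and 3, the count of higher members was 70, 61 and 67 of 77, beside 18.1, 35.6 and 29.9% of all genes, and that of lower members 1, 0 and 0, beside 40.4, 13.5 and 26.7%. Cardiomyocyte-like cells had a median of 1288 UMIs against 5293 over all cells, and their levels in CPM rest on 3167127 UMIs outside the mitochondrial genome. Cluster 27, which held most of those in library 2, carried endothelial markers at 18644 CPM in sum, against 38035 CPM in the endothelial-like cluster 3. The part of this in the count of library 2 was not tested.

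**Figure D3:**
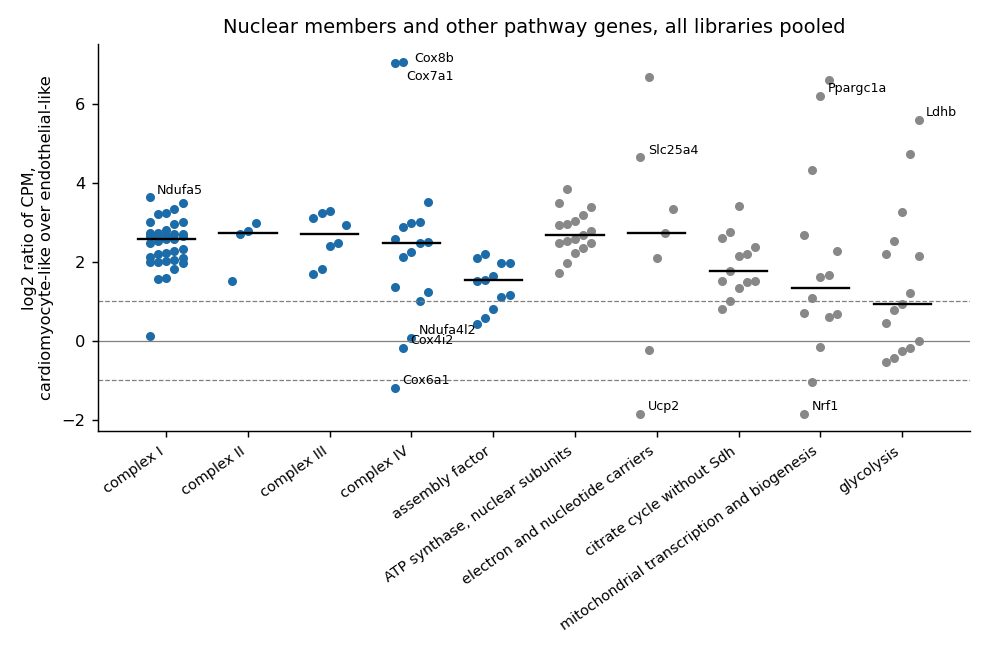
log2 ratio of the level (CPM) in cardiomyocyte-like over endothelial-like cells, with a blue point for each nuclear member with at least 20 UMIs by complex or as assembly factor, a grey point for each gene of 5 other metabolic lists described further on, black bars at the median of each set and dashed lines at 2-fold. Of the 77 members 70 lie above the upper line, with Cox8b and Cox7a1 farthest up, and Cox6a1 alone lies below the lower line.

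For complex I, which takes electrons from NADH, 35 of 36 members were at least 2-fold higher, with a median fold of 5.98, and its summed level was 29875 CPM in cardiomyocyte-like and 5185 CPM in endothelial-like cells. Ndufa5, an accessory subunit whose promoter window is shown above, was at 1846, 1156 and 1134 CPM in cardiomyocyte-like cells of libraries 1 to 3 and at 121, 153 and 100.4 CPM in endothelial-like cells, and the pooled fold was 12.5. Ndufc1 was at 1513, 1561 and 1514 CPM against 109.9, 147 and 125 CPM (pooled fold 11.3). The values of both genes lay far apart between the classes in each library. Ndufc2, encoded apart from Ndufc1 though both sit in the membrane arm, was the exception at 294, 479.8 and 367 CPM against 217, 431 and 216 CPM, a pooled fold of 1.09, and the classes' ranges overlapped.

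Complex II, the succinate dehydrogenase that also serves the citrate cycle, had all 4 subunits higher. The iron-sulphur subunit Sdhb was at 779 against 98.7 CPM (7.89-fold), the membrane anchors Sdhc and Sdhd at 395 against 57.2 CPM (6.91-fold) and 401 against 61.6 CPM (6.50-fold). The flavoprotein Sdha differed least, at 294 against 102 CPM (2.89-fold), and by library at 343, 267 and 227 CPM against 109, 102 and 96.7 CPM. All 8 members of complex III were higher (median 6.56-fold). They ranged from 3.23-fold for the core protein Uqcrc1 and 3.51-fold for Uqcrc2 to 9.47-fold for Uqcr10 and 9.75-fold for the Rieske iron-sulphur protein Uqcrfs1.

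Complex IV, cytochrome c oxidase, showed the widest spread of folds. Several of its subunits are known to exist as isoforms. Of 17 members compared, 14 were higher and 1 was lower (median 5.57-fold). Cox6c was at 4317, 3359 and 3597 CPM in cardiomyocyte-like cells of libraries 1 to 3 and at 426, 492 and 524 CPM in endothelial-like cells (pooled fold 8.03). Cox7b was at 2365, 1864 and 1785 CPM against 149, 209.6 and 182 CPM (pooled fold 11.5). The most abundant member, Cox8a, was only 2.01-fold higher, at 1034, 633 and 1292 CPM against 463, 579.5 and 511 CPM. The member lower in cardiomyocyte-like cells was Cox6a1, the non-muscle form of subunit 6a, at 87.8, 220.2 and 152.9 CPM against 259, 322 and 275.5 CPM (pooled fold 0.437), and its ranges did not overlap. Its muscle counterpart was not among the members. Cox4i2 (0.889-fold) and Ndufa4l2 (1.06-fold) differed little between these classes. Cox7a2l, counted with complex IV by its symbol, was at 1016, 405 and 895 CPM against 430, 134 and 501 CPM in libraries 1 to 3. It was lowest in library 2 in both classes.

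Assembly factors, which help to build the complexes without staying in them, were lower in level and in fold. Their summed level was 829 CPM in cardiomyocyte-like and 284 CPM in endothelial-like cells, with 9 of 12 higher and a median fold of 2.92. Sdhaf4 (128 against 27.7 CPM, 4.61-fold) and Ndufaf8 (245 against 57.4 CPM, 4.27-fold) led, and Ndufaf7 was last (18.0 against 13.4 CPM, 1.35-fold). In libraries 1 to 3 the count was 10, 2 and 7 of 12, beside 18.1, 35.6 and 29.9% of all genes. The count in library 2 rests on 121 UMIs of all 12 factors in cardiomyocyte-like cells, with 3 for Ndufaf1, so it is imprecise. Assembly factors took 1.14% of nuclear member UMIs in cardiomyocyte-like cells and 2.28% in endothelial-like cells.

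The balance between complexes was close to the same in both classes. Complex I took 41.0% of nuclear member UMIs in cardiomyocyte-like and 41.7% in endothelial-like cells, complex II 2.57% in each, complex III 16.6 and 14.8%, and complex IV 38.7% in each. The products of the 2 genomes within a complex were in different ratios. In cardiomyocyte-like cells there were 3.17 mitochondrial UMIs per nuclear UMI for complex I, 3.47 for complex III and 5.91 for complex IV, and in endothelial-like cells 4.22, 5.26 and 8.35. Complex IV had the highest ratio in both classes, pooled and in each of libraries 1 to 3. The lower ratios of cardiomyocyte-like cells came mainly from library 1. For complex I they were 2.76, 2.72 and 5.00 in libraries 1 to 3 against 6.01, 2.75 and 4.70 in endothelial-like cells. For complex III they were 3.0, 3.15 and 5.52 against 7.33, 3.06 and 6.16. The order of the classes thus turned for complex I in library 3. In library 2 the classes were nearly equal for both complexes, and no interval was computed for these ratios. When pooled, complex IV took 45.1% in granulocyte-like, 42.6% in macrophage-like, 42.3% in pericyte-like, 41.5% in T/NK-like and 40.5% in B-like cells, with complex I at 36.5, 38.95, 39.2, 39.5 and 39.6%. In library 1 alone complex IV was not above complex I in granulocyte-like cells (41.1 and 41.6%).

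The other classes were each compared with endothelial-like cells in the same way, pooled over libraries. In macrophage-like cells 4 members were at least 2-fold higher (Ndufv3 2.34-fold, Sdhb 2.33-fold, Cox7b 2.25-fold and Cox8a 2.22-fold) and 4 lower (Cox4i2, Ndufaf4, Cox8b and Ndufa4l2), where 15.3% of all genes were higher and 39.5% lower. The median fold was 1.3 and that of all genes 0.652. Within libraries 1 to 3, where both classes were present, the members' median was 1.05, 0.983 and 1.05. That of all genes was 0.744, 0.687 and 0.735. Within these libraries the members were thus near their level in endothelial-like cells, and above the median of all genes. There 1, 1 and 1 members were higher (15, 13 and 14% of all genes) and 2, 5 and 3 lower (29.9, 36.1 and 30.5%). T/NK-like cells had 6 higher and 4 lower (17.8 and 34.6% of all genes), with Ndufa13 (2.34-fold), Cox7b (2.33-fold) and Uqcrfs1 (2.30-fold) among the higher. Of the T/NK-like cells 1799 of 2372 came from library 4, where no endothelial-like cells stood for comparison. Fibroblast-like cells had 2 higher, Cox6b2 (8.58-fold) and Ndufa4l2 (8.40-fold), and 2 lower, Ndufa8 (0.425-fold) and Cox7a1 (0.467-fold), where 22.3% of all genes were higher and 17.0% lower. The counts were 2 higher and 2 lower in library 1 (20.4 and 18.4% of all genes) and 2 higher and 1 lower in library 3 (21 and 17.4%). In granulocyte-like cells no member was 2-fold higher and 54 were lower, where 10.6% of all genes were higher and 58.3% lower, and the members' median of 0.386 was close to that of all genes, 0.395. This count rests mainly on library 2, since in library 3 the nuclear share of granulocyte-like cells, 1.26%, was near that of endothelial-like cells, 1.24%. In library 1 it was the lower one, at 0.857 against 1.14%.

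Several members form pairs in which 1 gene is used broadly and the other in few tissues, and the share of a pair's UMIs needs no scaling by depth. Cox7a1, the heart and skeletal muscle form of subunit 7a, held 48.8% (47.9 to 49.7) of Cox7a1 and Cox7a2 UMIs in cardiomyocyte-like cells, with 5353 and 5615 UMIs. By library it was 49.6, 56.9, 46.2 and 32.3%, lowest in library 4 where the cardiomyocyte markers were also lowest. In endothelial-like cells the share was 4.95, 2.78 and 2.11% in libraries 1 to 3. Cox8b, the muscle form of subunit 8, held 58.7% (57.6 to 59.7) of the Cox8a and Cox8b UMIs, at 62.1, 66.4, 50.6 and 33.8% by library, against 2.06% in endothelial-like cells. The groups were far apart for both pairs in each library in which both classes were present. Erythroid-like cells had 15.7% for Cox7a1 and 13.4% for Cox8b, but on only 108 and 134 UMIs of the pairs (intervals 9.45 to 24.0% and 8.16 to 20.4%), and every other class was below 3% for both when pooled, apart from endothelial-like cells at 3.07% for Cox7a1.

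Cox7a1 and Cox8b gave the largest folds of any member, 131 (1690 against 12.9 CPM) and 135 (1494 against 11.0 CPM), and these rest on the low levels in endothelial-like cells. Those cells also held transcripts of the cardiomyocyte markers, at 809, 361 and 384 CPM in sum in libraries 1 to 3, with none of the 9 markers at 0. Per 1000 UMIs of those markers, Cox7a1 gave 23.8, 35.8 and 21.8 UMIs in endothelial-like cells and 21.8, 32.9 and 19.7 in cardiomyocyte-like cells of the same libraries, and Cox8b gave 23.1, 27.9 and 17.1 against 19.1, 26.8 and 18.4. The 2 muscle isoforms in endothelial-like cells therefore stood in nearly the same proportion to other heart muscle transcripts as in the muscle cells, library by library. In macrophage-like cells the 2 genes parted. Cox8b gave 20.2, 29.5, 17.0 and 23.8 per 1000 marker UMIs, close to the muscle cells, whereas Cox7a1 gave 36.1, 140 and 40.1 in libraries 1 to 3 and 202 in library 4, where 569 UMIs were counted at a level of 6.47 CPM. T/NK-like cells of library 4 likewise had 124 for Cox7a1 (68 UMIs) and 25.5 for Cox8b (14 UMIs), and fibroblast-like cells of library 4 had 136 for Cox7a1 (33 UMIs) and 111 for Cox8b (27 UMIs).

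Mural cells, the pericytes and smooth muscle of the vessel wall, used another pair of isoforms. Cox4i2, a form of subunit 4 that is known for oxygen-sensitive regulation, held 39.8% of the Cox4i1 and Cox4i2 UMIs in pericyte-like cells, at 44.8, 29.7 and 44.0% in libraries 1 to 3, and 27.4% in smooth muscle-like cells, at 29.96, 12.1 and 34.1%. It held 2.22% in fibroblast-like, 2.13% in endothelial-like, 0.403% in cardiomyocyte-like and 0.09% in T/NK-like cells. Its level in pericyte-like cells was 538.9, 272 and 608 CPM in libraries 1 to 3, lowest in library 2.

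Ndufa4l2, a gene known to be induced by hypoxia and related to the complex IV subunit Ndufa4, held 77.3% of that pair in pericyte-like cells (80.1, 62.2 and 85.2% in libraries 1 to 3) and 56.9% in smooth muscle-like cells (49.5, 45.7 and 66.4%). Fibroblast-like cells had 33.6%, at 34.4, 35.3 and 28.8% in libraries 1, 3 and 4. Endothelial-like cells had 4.51%, cardiomyocyte-like cells 0.874%, macrophage-like cells 0.69% and T/NK-like cells 0.22%. In pericyte-like cells its level was 699, 417 and 1139 CPM by library, so both mural isoforms were lowest in library 2 in this class and in smooth muscle-like cells. Cox6b2, known from testis, stayed low throughout and was highest in fibroblast-like cells at 10.3 CPM.

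**Figure D4:**
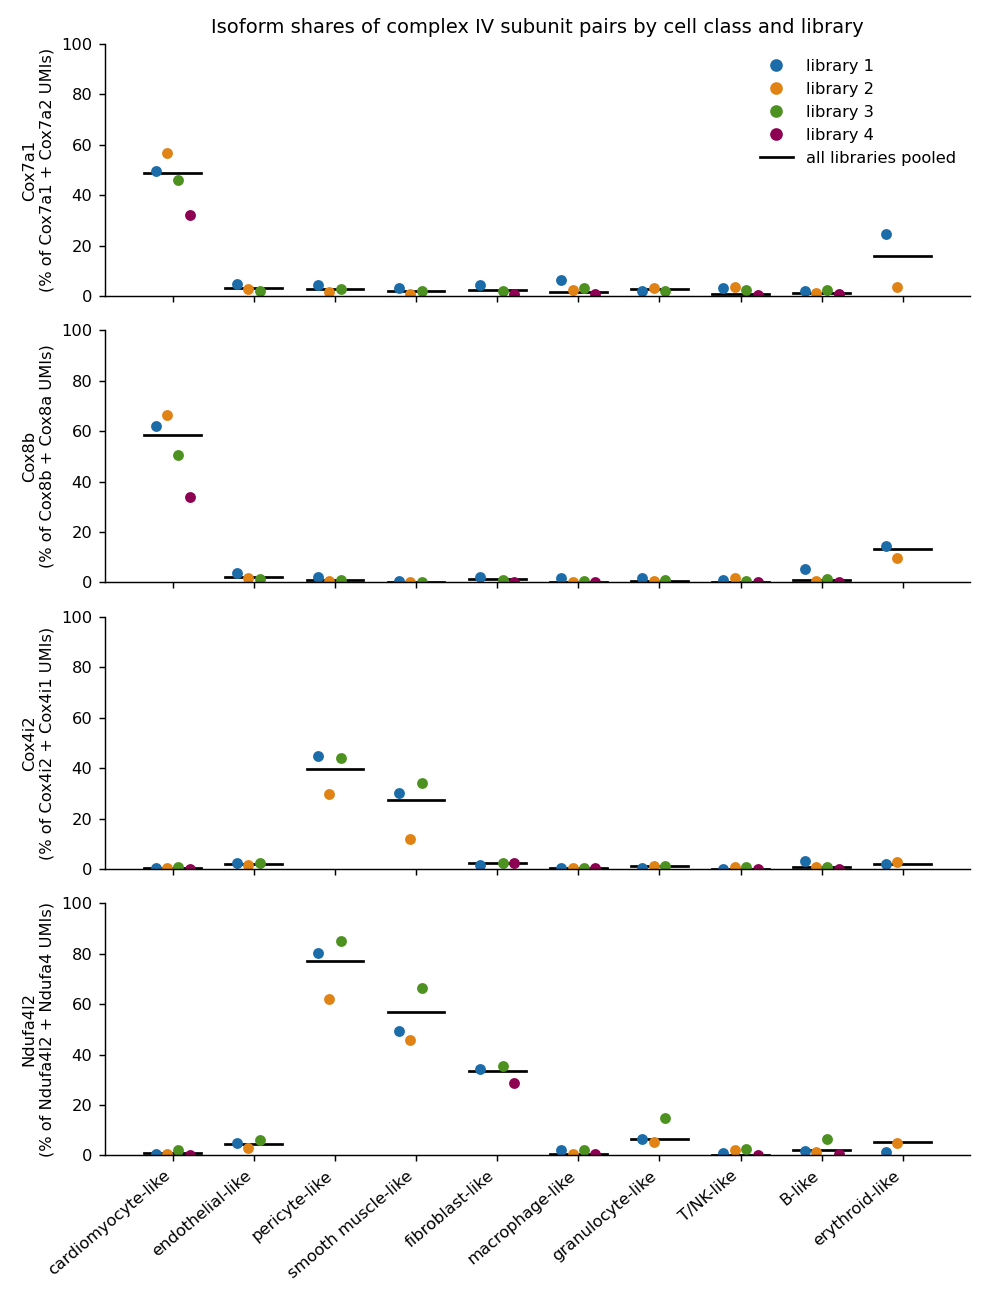
Share, in percent, of the restricted isoform in the UMIs of each of 4 isoform pairs (1 panel a pair), by class, with black bars for all libraries pooled and coloured points for each library. Cox7a1 (48.8%) and Cox8b (58.7%) stand out in cardiomyocyte-like cells, and Cox4i2 (39.8%) and Ndufa4l2 (77.3%) in pericyte-like cells.

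Other genes of energy metabolism were read from lists that do not overlap the members. In the comparison of cardiomyocyte-like with endothelial-like cells, 24.8% of all genes were higher and 33.7% lower. All 17 nuclear ATP synthase genes were at least 2-fold higher in cardiomyocyte-like than in endothelial-like cells (median 6.46-fold), and they took 3.46 and 0.511% of the non-mitochondrial UMIs. Of 7 carriers, 5 were higher and 1 lower. The ADP/ATP carrier of heart and muscle, Slc25a4, led in level (7722 against 306 CPM), with cytochrome c, Cycs, 6.70-fold and the phosphate carrier Slc25a3 4.28-fold higher. The general ADP/ATP carrier Slc25a5 was at 0.849-fold. The lower one was Ucp2, of the uncoupling protein family (75.8 against 273 CPM). Ucp3 of the same family was rare and went the other way, at 24.8 against 0.439 CPM in library 1 (52 and 12 UMIs). Citrate cycle genes outside complex II were higher in 12 of 13 (median 3.44-fold), among them Mdh2 (4.43-fold) and Suclg1 (6.75-fold).

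Genes of mitochondrial transcription and biogenesis gave a mixed picture, with 8 of 14 higher and 2 lower when pooled. Their median fold was 2.55 pooled, and 2.16, 1.66 and 1.95 within libraries 1 to 3. There 7, 5 and 6 of 13, 12 and 13 compared were higher, beside 18.1, 35.6 and 29.9% of all genes. The count of lower ones was 2, 1 and 1, beside 40.4, 13.5 and 26.7%. The genes of this list with the most UMIs were Slirp (1.6-fold), Tfam (1.51-fold), Gabpa (0.482-fold) and Nrf1 (0.278-fold). The last 2, whose products bind the motifs counted in the promoter windows, were the lower ones when pooled. In cardiomyocyte-like cells of libraries 1 to 3 they rest on 40, 5 and 7 UMIs of Gabpa and 14, 3 and 8 of Nrf1. None of these 4 genes reached 2-fold higher. Among those that did, Esrra was at 138, 55.1 and 84.1 CPM against 16.1, 20.3 and 16.1 CPM in libraries 1 to 3. Ppargc1a was at 55.3, 3.93 and 47.8 CPM against 1.43, 0.21 and 0.414 CPM, with 1 UMI in cardiomyocyte-like cells of library 2. Glycolysis genes were higher in 7 of 15 and lower in none when pooled (median 1.92-fold), with Gapdh 4.47-fold and Aldoa 4.59-fold higher and Ldha at 1.37-fold. Within libraries 1 to 3, 9, 6 and 7 of the 15 were higher, beside 18.1, 35.6 and 29.9% of all genes. There 0, 2 and 0 were lower, beside 40.4, 13.5 and 26.7%, and the median fold was 2.91, 1.42 and 1.80. In macrophage-like and granulocyte-like cells 12 of the 15 glycolysis genes were at least 2-fold above endothelial-like cells, while 4 and none of the 77 respiratory chain members were and 15.3 and 10.6% of all genes were. Within libraries 1 to 3 the count in macrophage-like cells was 7, 11 and 5 of 15 (15, 13 and 14% of all genes), with a median fold of 1.64, 2.80 and 1.71 beside the pooled 3.65, so library 4 raised the pooled value. Glycolysis took 1.24% of the non-mitochondrial UMIs in macrophage-like, 0.974% in granulocyte-like, 0.909% in T/NK-like and 0.308% in endothelial-like cells.

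A limit of 20% on mitochondrial UMIs would have taken 8898 of the 50975 cells (17.5%). Pooled over libraries, it fell unevenly on the classes. It took 712 cardiomyocyte-like cells (37.6%, 35.4 to 39.8), 29.1% of smooth muscle-like, 26.7% of pericyte-like, 21.4% of B-like, 21.2% of T/NK-like, 15.2% of endothelial-like, 13.4% of fibroblast-like, 8.94% of macrophage-like, 2.87% of granulocyte-like and 1.58% of erythroid-like cells. The fibroblast-like value depends on the naming of cluster 9, a shallow cluster left unnamed though it carried 7 fibroblast markers, and counting its 2205 cells gave 24.1% (23.1 to 25.1). In cardiomyocyte-like cells the share was 40.02, 11.7, 53.7 and 20.8% in libraries 1 to 4. Other classes also moved between libraries, so the pooled order was not kept in each. Endothelial-like cells had 20.7, 4.38 and 23.1% in libraries 1 to 3, and granulocyte-like cells 14.02, 0.806 and 16.8%. Macrophage-like cells had 22.2, 6.63, 21.2 and 4.76% in libraries 1 to 4. Fibroblast-like cells had 3.3, 22.9 and 7.12% in libraries 1, 3 and 4. Of the 595 such cells over the limit in library 3, 429 were in cluster 20, described further on. In library 2 T/NK-like (27.7%), smooth muscle-like (22.4%), pericyte-like (16.4%) and B-like cells (15.3%) lay above cardiomyocyte-like cells. In library 4 T/NK-like cells (21.3%) were slightly above them. With the limit, cardiomyocyte-like cells made up 2.81% of all cells rather than 3.72%, and macrophage-like cells 20.3% rather than 18.4%. With each cell thinned to 1000 UMIs, which leaves out 651 shallower cardiomyocyte-like cells, 36.0% of them were at or over the limit, and 36.3% of the same cells before thinning.

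Below the limit, cardiomyocyte-like cells had more mitochondrial UMIs (8.88%) than endothelial-like cells (6.18%). By library the values were 8.91 against 7.12% in library 1 and 11.8 against 6.78% in library 3. Cardiomyocyte-like cells no longer ranked first when pooled, with smooth muscle-like cells at 10.3% and B-like cells at 8.91%. Smooth muscle-like cells lay above cardiomyocyte-like cells in library 1 (12.01%) and below them in library 3 (10.2%). Since cells are split by the mitochondrial share itself, only the nuclear share is read across the limit. The nuclear share of cardiomyocyte-like cells was 7.44% below it and 6.87% at or over it, and by library 8.19 and 7.66% in library 1 and 7.41 and 5.76% in library 3. In bands of under 5, 5 to 10, 10 to 20, 20 to 50 and at least 50% mitochondrial UMIs it was 7.78, 7.6, 7.01, 7.14 and 5.51%, over 207, 361, 614, 618 and 94 cells. Of the 94 cells in the top band 55 came from library 1, where the value was 7.04%. The mitochondrial UMIs are not in the denominator of these shares.

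Other classes differed in this. In endothelial-like cells the nuclear share was 1.24% below and 1.28% at or over the limit, and in pericyte-like cells 1.39 and 1.48%. It was lower at or over the limit in smooth muscle-like (2.13 and 1.53%), macrophage-like (1.69 and 1.02%) and T/NK-like cells (1.82 and 1.25%), for smooth muscle-like cells in each of libraries 1 to 3 and for macrophage-like cells in all 4 libraries. The other classes varied by library. In T/NK-like cells it was 1.89 and 1.3% in library 4 but 0.99 and 1.04% in library 2, and in pericyte-like cells 1.41 and 1.04% in library 2 but 1.25 and 1.55% in library 1 and 1.48 and 1.66% in library 3. The nuclear long RNA Malat1 took 0.497% of non-mitochondrial UMIs below and 1.25% at or over the limit in cardiomyocyte-like cells, and 4.94 and 13.2% in smooth muscle-like cells. Cells at or over the limit also held more heart muscle RNA in other classes. The summed cardiomyocyte markers were at 304, 490, 817, 1633 and 5060 CPM in the 5 bands of endothelial-like cells, and Cox7a1 held 2.81% of its pair below and 10.4% at or over the limit there. The part of these in the nuclear shares was not tested.

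**Figure D5:**
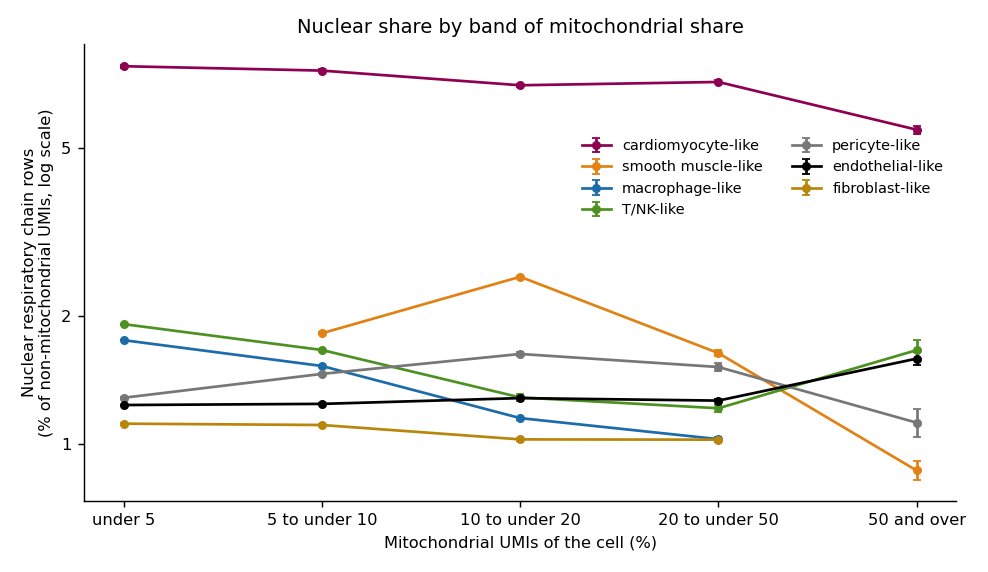
Nuclear members' share of non-mitochondrial UMIs, in percent on a log scale, against the band of mitochondrial UMIs of the cell, with a line for each of 7 classes pooled over libraries and error bars for the exact 95% interval. Cardiomyocyte-like cells go from 7.78% in the lowest to 5.51% in the highest band and stay above the other 6 classes throughout.

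Depth mostly fell as the mitochondrial share rose. Over the cells of a class in a library, for each of the 33 with at least 50 cells, the rank correlation of total UMIs with the mitochondrial share was negative, from -0.19 in cardiomyocyte-like cells of library 2 to -0.85 in pericyte-like cells of library 3. Total UMIs enter both measures, and cells of a library are not replicates, so this is given as a description. The fall in total UMIs did not always reach the top band. From 20 to 50% to at least 50% mitochondrial UMIs, median UMIs went from 1083 to 5451 in cardiomyocyte-like cells. They went from 1425 to 4116 in endothelial-like and from 5197 to 4787.5 in smooth muscle-like cells. Median UMIs outside the mitochondrial genome did not rise. They went from 784.5 to 756 in cardiomyocyte-like, from 1016 to 386 in endothelial-like and from 3175 to 1924 in smooth muscle-like cells.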

How the data were processed

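Single cells of 4 mouse heart grafts were profiled with 10x Chromium 3′ libraries. The authors deposited UMI counts for each gene in each cell. They come from Cell Ranger 3.0.0 (genome mm10, genes of Ensembl 92) and carry no scaling. The labels also name CASAVA 1.8 and Seurat. No label or file pairs a barcode suffix with a graft, so cells form 1 pooled sample and no test or p-value is given. UMIs were not thinned except where stated.

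Cells with over 200 genes were kept with no limit on mitochondrial UMIs, and the 5% per library most like simulated doublets were removed, where the study used scran. Clustering used 2000 variable genes without members, Cox6a2 or the metabolic lists, 10 principal components, 30 neighbours and the Leiden method at resolution 0.8 (seed 20). A cluster was named when at least 3 markers of a class were found in at least 10% of its cells at 2-fold or more (10 CPM added). Shallow clusters (median UMIs below 1/3 of that of their library) with no marker among the 10 leading genes got no name.

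CPM was computed here from non-mitochondrial UMIs. A fold of 2 counts as higher or lower, among genes with at least 20 UMIs over both classes. A class with fewer than 3 counts was set to a floor of 3 counts. Named are all mitochondrial genes, the 10 nuclear members with the most UMIs, isoform sets, the Sdh subunits, the 5 largest folds each way, and up to 4 genes per metabolic list by UMIs. Others, given as ends of a range, because a count was small or as examples of higher genes, were chosen after their values were seen. Members and lists were chosen with earlier results of these data known. Alternatives were other filters, resolutions, naming and weighting of cells, and leaving out each library. The fold step was checked on simulated data. Promoters come from RefSeq tables on GRCm38.p6.

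The work used Python 3.11.15, numpy 2.4.6, scipy 1.17.1, pandas 2.3.3, scikit-learn 1.9.0, igraph 0.11.9, leidenalg 0.10.2 and matplotlib 3.10.9.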

Additional observations from a re-analysis of the deposited data

How the results depend on the processing

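Cardiomyocyte-like cells stood above endothelial-like cells in the mitochondrial and in the nuclear share under the 11 alternatives that pool UMIs and also as a mean over cells, while the sizes moved beyond counting error. The mitochondrial share of cardiomyocyte-like cells, 26.8%, was 8.88% with cells under 20% mitochondrial UMIs, 21.5% with at least 500 genes, 20.4% with at least 1000 non-mitochondrial UMIs, 23.9% at resolution 1.6, 31.6% with cells named by their own markers and 19.6% as a mean over cells. That of endothelial-like cells, 8.18%, was 6.18, 6.59, 7.02, 8.14, 7.02 and 12% in the same order, 7.79% with doublets kept and 8.28% at resolution 0.4. The nuclear share of cardiomyocyte-like cells, 7.28%, was 7.44, 7.65, 7.64, 7.67, 7.57 and 6.65% in that order and 5.80% with doublets kept. That of endothelial-like cells, 1.24%, was 1.28% with 500 genes, 1.24% by depth, 1.26% at resolution 1.6, 1.26% by own markers and 1.32% as a mean over cells. The share of cardiomyocyte-like cells at or over the limit, 37.6%, was 29.8, 25.5, 34.8 and 40.5% with 500 genes, by depth, at resolution 1.6 and by own markers. The Cox7a1 share, 48.8%, was 49.9% under the limit and 47.7% with doublets kept. The cause of these shifts was not tested.

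Leaving out each library in turn gave 25.1 to 28.7% and 5.80 to 7.6% for the shares of cardiomyocyte-like cells, 7.46 to 9.59% and 1.19 to 1.28% for those of endothelial-like cells, 46.5 to 49.6% for the Cox7a1 share, 33.4 to 40.3% for cells at or over the limit, and 68 to 69 for the count of 70 higher members. Under the other 7 alternatives that count was 67 to 70. Alternatives chosen after seeing the data left out library 1 for the ratio of both genomes in cardiomyocyte-like and endothelial-like cells, library 2 for granulocyte-like cells and library 4 for macrophage-like and T/NK-like cells, and counted cluster 9 as fibroblast-like. They are given beside the values they moved.

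No paired analysis was possible because no result comes from a test, and libraries that no source ties to a graft are not replicates of a group. Values of classes are set side by side within libraries instead. With 1 pooled sample, no value has a spread between grafts. Cardiomyocyte-like cells are shallow (median 1288 UMIs), and 2 of the 3 clusters that hold them come almost wholly from 1 library each, so class and library cannot be told apart there.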

Other observations

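Cells of some clusters had nearly the same mitochondrial share. In cluster 17, 885 endothelial-like cells all from library 2, the quartiles were 7.39 and 8.38%. In cluster 20, 576 fibroblast-like cells nearly all from library 3, they were 19.97 and 22.6%. There 74.5% of the cells were at or over 20%. Depth was not as narrow in either cluster, with quartiles of 2188 and 6160 UMIs in cluster 17 and 4464.5 and 7495.75 UMIs in cluster 20. Clusters 17 and 20 were named on 3 and 5 markers, with none among their 10 leading genes. Gm26870 was among the leading genes of both. A cluster of library 2 also led by Gm26870 was named endothelial-like when cells were clustered less finely. It was left unnamed when they were clustered more finely or with doublets kept. In cluster 3, which held most endothelial-like cells of library 2, the quartiles of the mitochondrial share were 3.69 and 9.62%. In cluster 8, which held most fibroblast-like cells of library 3, they were 4.11 and 8.06%. Clusters 17 and 20 also carried markers of other classes. Endothelial, fibroblast and macrophage markers summed to 18871, 2175 and 876 CPM in cluster 17. In cluster 3 these sums were 38035, 123 and 68.3 CPM. In cluster 20 they were 9733, 20471 and 3094 CPM, and in cluster 8 they were 308, 57627 and 86.5 CPM. The cause of these mixed profiles was not tested.

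Among the unnamed clusters, cluster 5 (3054 cells, 2929 of them from library 4) was led by the interferon-response genes Ubd and Cxcl9 and had a wide mitochondrial share, with quartiles of 5.11 and 45.7% and 734 cells at or over 50%. Cluster 9 (2205 cells, led by Dkk3 and Cadm1) had a median of 19.9%, and cluster 16 (1082 cells, led by Prg4 and Cxcl5) one of 3.58%.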
